A study of Mus musculus with 32 samples.

Results

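The 45 genes described here carry a cell from G1 through DNA replication into mitosis, or hold it back. They were picked by gene symbol, and each symbol was found once among the 55487 genes of the deposited table. By role they are 20 S-phase genes, 17 mitotic genes, 5 genes for the D cyclins with Cdk4 and Cdk6, and 3 Cdk inhibitor genes. The study sorted 4 populations from the bone marrow of 8 mice and sequenced the RNA of each, giving 32 libraries. The populations are named as labelled: LSK, the gate that holds stem and multipotent progenitors, and CMP, GMP and MEP, the gates for common myeloid, granulocyte-monocyte and megakaryocyte-erythroid progenitors. The 4 control mice were Mx1-Cre- Cxadrfl/fl and the 4 Cxadr-ko mice Mx1-Cre+ Cxadrfl/fl, so all 8 carried floxed alleles of Cxadr, the gene for the adenovirus receptor CAR. Mx1-Cre is a recombinase under an interferon-inducible promoter that acts in blood cells and in other tissues. Because the control mice had no Cre, an effect of Cre itself and an effect of Cxadr loss cannot be told apart. The sources used here do not give the age of the mice or the induction of Cre.

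A cell commits to division in G1, when D cyclins with Cdk4 or Cdk6, and then cyclin E with Cdk2, phosphorylate the retinoblastoma proteins and free E2F factors to switch on the S-phase genes. Mitotic genes come later, through the DREAM and MuvB complexes, which bind the CHR element of their promoters, often beside CCAAT boxes. Cdk inhibitors of the p21, p27 and p57 type oppose these kinases, and in marrow the most primitive stem cells are known for being mostly quiescent while committed progenitors cycle.

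All values are normalized read counts deposited by the authors. Recovered read totals ran from 8313300 to 13641248 per library. Cxadr itself was scarce, at 6.67 to 50.5 normalized counts (median 21.7) in the 16 control libraries and 0 to 54.5 (median 17.8) in the 16 Cxadr-ko libraries. These ranges overlap, and counts per gene do not show which exons the reads came from, so this is no check of the genotype labels. The LSK label was borne out by its markers: Ly6a, the gene of Sca-1, averaged 745 ± 307 (SD, n = 4) in control LSK and 37.4 to 66.7 in the other control populations, and all 8 stem cell genes of the list were higher in LSK than in CMP (limma). Mpo and Elane, granule protein genes, had their highest control means in GMP. CMP and MEP were little apart over all genes: 1 of 17218 genes passed between them in control mice (0.00581%), and none of 7 erythroid genes did (limma; 2 with an unadjusted p under 0.05, against 11.9% of all genes). The summed level of those 7 genes was higher in MEP than in CMP of the same mouse in all 8 mice, at 317 to 555 against 245 to 453 in control mice and 445 to 593 against 289.7 to 452 in Cxadr-ko mice. In control mouse 4 the GMP sum exceeded the MEP sum (366 against 317). It did so too in Cxadr-ko mice 2, 3 and 4 (555, 521 and 665 in GMP), and not in the other mice. The mean log2 level of the 7 genes was lower in MEP than in CMP in control mouse 4 and Cxadr-ko mice 1 and 4. It was higher in the other mice. Klf1, an erythroid transcription factor gene, averaged 93.5 ± 8.35 in control MEP and 58.1 ± 26.1 in control CMP. Immunoglobulin transcripts made up 12.5% of the counts in LSK of control mouse 1 and 5.24% in LSK of Cxadr-ko mouse 1. The summed level of 6 neutrophil genes was high in MEP of control mouse 3 (112751), CMP of Cxadr-ko mouse 2 (107161) and GMP of Cxadr-ko mouse 2 (56407). In bulk RNA of this kind, fewer cells of a type and less RNA per cell cannot be told apart.

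The promoters show how the S-phase and mitotic genes differ in sequence. RefSeq windows (GRCm38.p6, 250 bases before to 50 after the start of transcription) matched 35 of the 45 genes. They were searched on both strands for 3 motifs: the CHR word TTTGAA, the E2F words TTTCCCGC, TTTGGCGC, TTTCGCGC and TTTGCCGC, and CCAAT. For 6 genes the sequence is printed as the 170 bases before the start, 5′ to 3′ on the strand of the gene, with matches in capitals; on the opposite strand CCAAT reads ATTGG, and GCGCCAAA, GCGCGAAA and GCGGGAAA are E2F words. Mcm5, Mcm6 and Cdc6 are S-phase genes, Cdk1, Mki67 and Cdc20 mitotic ones, and each was chosen for holding matches. The starts are those of RefSeq. By the gene coordinates used below to find overlapping genes, Cdc6 starts at base 98907801, ahead of its whole printed stretch. Its E2F word then lies inside the gene, and it is counted below by its RefSeq window. The last printed bases of Cdk1 and Cdc20 also lie inside the gene by those coordinates.
Mcm5, helicase subunit, chr8:75109339-75109508, + strand: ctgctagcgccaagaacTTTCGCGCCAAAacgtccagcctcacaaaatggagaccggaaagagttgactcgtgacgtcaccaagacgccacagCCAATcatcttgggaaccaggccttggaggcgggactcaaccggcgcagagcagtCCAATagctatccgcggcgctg
Mcm6, helicase subunit, chr1:128359706-128359875, - strand: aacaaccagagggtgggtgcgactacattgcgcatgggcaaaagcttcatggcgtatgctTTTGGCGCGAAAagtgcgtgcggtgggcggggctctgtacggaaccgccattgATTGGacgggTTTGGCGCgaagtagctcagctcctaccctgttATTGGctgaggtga
Cdc6, helicase loader, chr11:98907981-98908150, + strand: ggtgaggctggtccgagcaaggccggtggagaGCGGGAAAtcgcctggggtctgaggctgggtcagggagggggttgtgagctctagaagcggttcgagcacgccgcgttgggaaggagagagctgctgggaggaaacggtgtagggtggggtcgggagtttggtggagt
Cdk1, mitotic kinase, chr10:69352913-69353082, - strand: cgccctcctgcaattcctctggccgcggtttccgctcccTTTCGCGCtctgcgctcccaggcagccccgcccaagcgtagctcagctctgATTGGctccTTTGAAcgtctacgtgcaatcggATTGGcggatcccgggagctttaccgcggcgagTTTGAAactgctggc
Mki67, proliferation antigen Ki-67, chr7:135716380-135716549, - strand: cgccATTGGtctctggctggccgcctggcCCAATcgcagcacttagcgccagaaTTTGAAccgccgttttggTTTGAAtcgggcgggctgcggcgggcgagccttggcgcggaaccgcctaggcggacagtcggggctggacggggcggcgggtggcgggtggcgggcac
Cdc20, activator of the anaphase-promoting complex, chr4:118437344-118437513, - strand: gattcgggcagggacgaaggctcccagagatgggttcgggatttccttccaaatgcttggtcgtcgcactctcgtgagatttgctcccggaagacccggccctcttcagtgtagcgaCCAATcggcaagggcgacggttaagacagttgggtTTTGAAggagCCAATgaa

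The CHR word stood in the windows of 10 of the 14 mitotic genes with a window (71.4%), of 2 of the 16 S-phase genes (12.5%) and of 20.2% of all 27025 genes. The E2F words stood in the windows of 8 of the 16 S-phase genes, of 1 of the 14 mitotic genes (7.14%) and of 2.6% of all genes. A gene with several windows counted once, and as holding a word if any of its windows did. That mitotic gene is Cdk1, printed above, whose window holds both kinds of word. CCAAT was found for 92.9% of the mitotic and 75.0% of the S-phase genes against 41.1% of all genes. Neither CHR nor E2F words were found in the windows of the 3 G1 kinase and cyclin genes or the 2 inhibitor genes that have any. The E2F matches of Mcm5 and of Mcm6 on opposite strands overlap each other, an E2F word and a CCAAT overlap in Mcm7, and 2 CCAAT words overlap in Uhrf1. A match is a description of the letters, not a bound site.

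**Figure D1:**
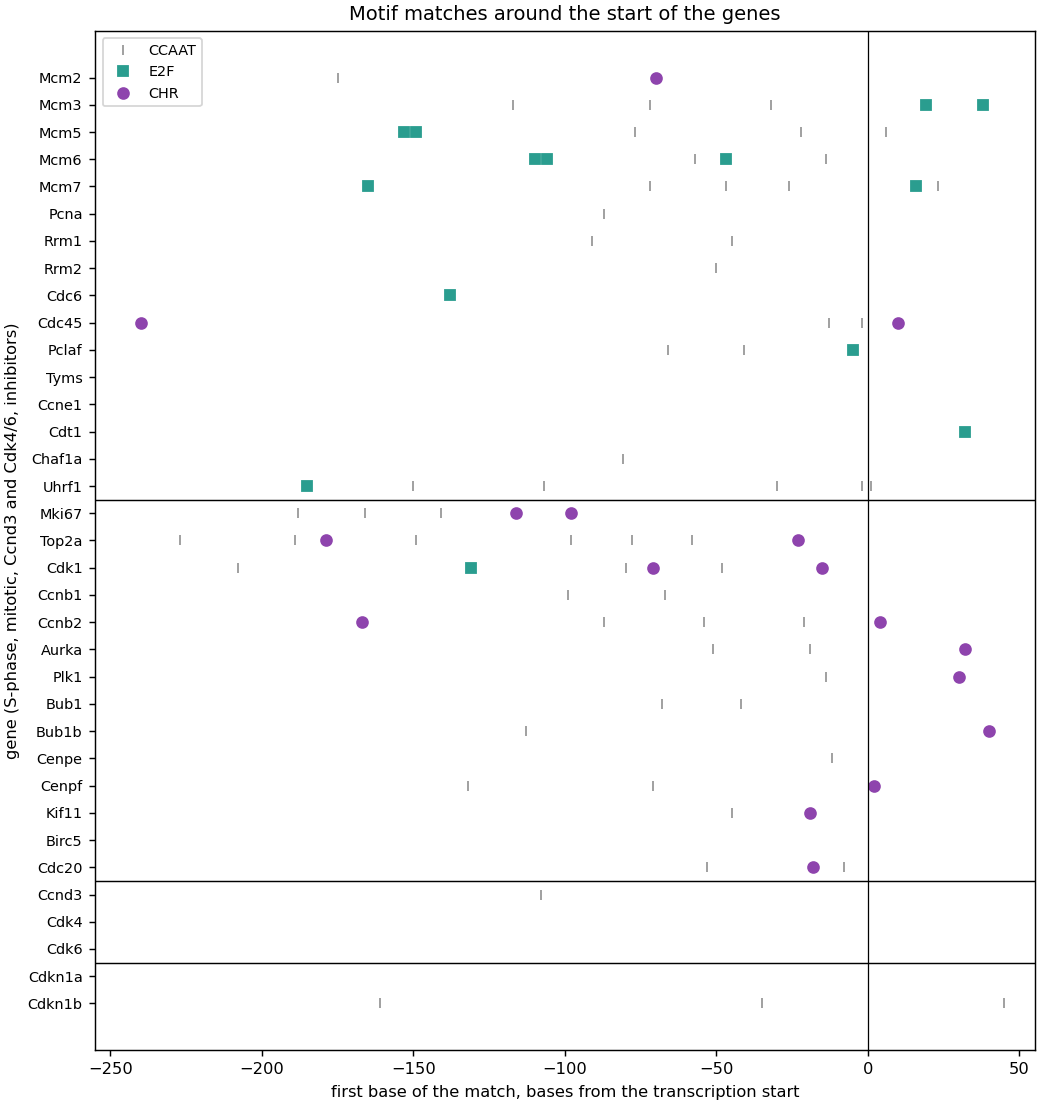
Positions of the CHR, E2F and CCAAT matches in the promoter windows, with the first base of each match in bases from the start of transcription on the x axis and 1 gene per row. E2F words lie mostly in the S-phase rows (8 of 16 genes) and CHR words mostly in the mitotic rows (10 of 14 genes).

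S-phase genes were lowest in LSK. In each of the 8 mice the mean log2 level of the 20 genes was lower in LSK than in CMP, GMP and MEP of the same mouse. The mean lay between 10.13 and 10.30 in the 8 LSK libraries and no lower than 10.33 in the other 24. The median difference over the 8 mice was -0.43 (log2, LSK minus CMP, range -0.50 to -0.24), and it was -0.21 for LSK minus GMP and -0.34 for LSK minus MEP. CMP was above MEP in all 8 mice too, by 0.077 to 0.14. The populations come from the same mice, and the 3 comparisons with LSK share the LSK libraries.

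**Figure D2:**
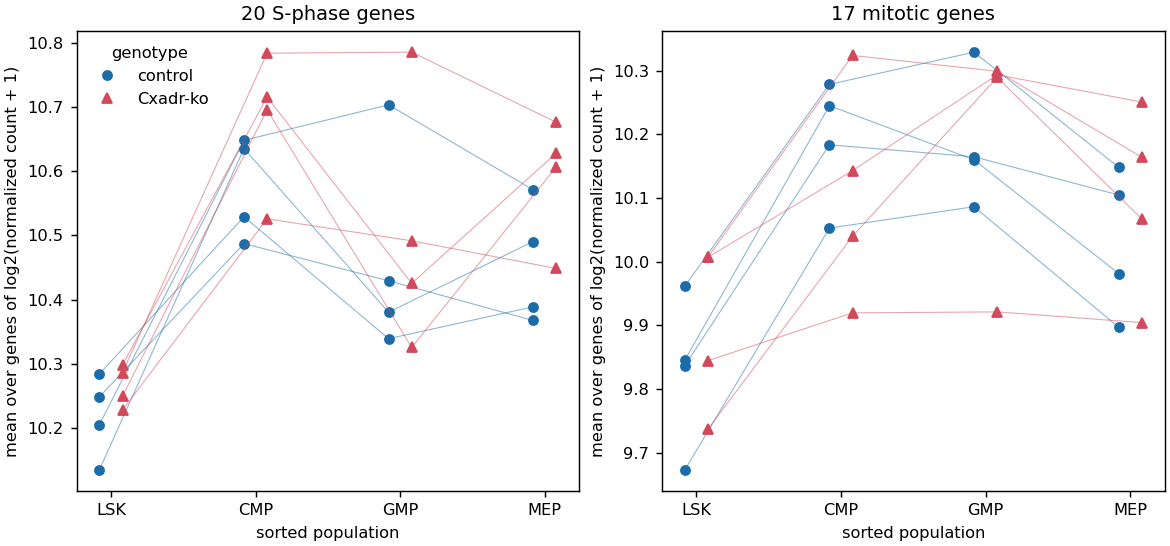
Mean over genes of log2(normalized count + 1) for the 20 S-phase genes (left) and the 17 mitotic genes (right) in each sorted population, 1 point per library, with lines joining the libraries of 1 mouse. LSK is the lowest population in each of the 8 mice in both panels, and the S-phase mean of the LSK libraries reaches no higher than 10.30.

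Gene by gene, 13 of the 20 S-phase genes were lower in LSK than in CMP of control mice and none was higher, with a median difference of -0.33 against 0.02 over all genes tested. Over all 45 genes 29 passed the test in that comparison (27 lower and 2 higher in LSK; limma with Benjamini-Hochberg adjustment, adjusted p under 0.05), against 21.9% of the 17218 genes tested, 10.7% lower and 11.2% higher. Between LSK and GMP 9 S-phase genes were lower and 1 higher (27 of the 45 passed, 22 lower and 5 higher, background 41.9%, 19.1% lower and 22.8% higher), and between LSK and MEP 7 were lower (18 of the 45 passed, 14 lower and 4 higher, background 26.8%, 12.6% lower and 14.2% higher). Any difference among the 4 populations was called for 34 of the 45 genes in control mice (background 39%) and for 26 in Cxadr-ko mice (background 26.4%). Of the 29 genes that passed between LSK and CMP, 16 also passed with each control mouse left out in turn. The count was 17 without control mouse 1, whose LSK library held the immunoglobulin transcripts.

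Pclaf, a PCNA-binding factor of replicating cells, had the largest difference of the 20 S-phase genes between LSK and CMP of control mice. Its normalized counts in LSK were 1673, 1901, 1853 and 1898 in control mice 1 to 4, against 3232, 3512, 3334 and 3497 for CMP, 3809, 4156, 3602 and 3629.5 for GMP and 3036, 3654, 2762 and 2859 for MEP. No LSK library overlapped any other population. LSK differed from CMP by -0.89 ± 0.06 (log2, SE; limma adjusted p 4.5e-07), from GMP by -1.05 ± 0.06 (adjusted p 1.4e-08) and from MEP by -0.74 ± 0.06 (adjusted p 2.5e-06). In Cxadr-ko mice the LSK counts were 2397, 2351, 2321 and 2290.04, below all 12 counts of the other populations, which ran from 2766 (MEP) to 4668 (GMP), and the differences were -0.68 ± 0.11, -0.68 ± 0.11 and -0.62 ± 0.11. Pclaf overlaps Trip4 on the other strand, which reached 479.

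Gins1, a subunit of the GINS part of the replicative helicase, held 509.6, 555, 469.9 and 604 counts in control LSK. It held 701, 768, 726 and 809.96 for CMP, 862, 739, 739 and 751 for GMP and 825, 837, 659 and 809 for MEP. Again LSK lay below all other control libraries, by -0.49 ± 0.09 against CMP (limma adjusted p 0.00093), -0.53 ± 0.09 against GMP and -0.55 ± 0.09 against MEP. In Cxadr-ko mice LSK held 607, 445, 634 and 455 counts and the LSK to CMP difference was -0.67 ± 0.14 (adjusted p 0.00523). The LSK to GMP and LSK to MEP differences of those mice were -0.50 ± 0.14 and -0.55 ± 0.14, and the calls were lost without mouse 1 or 2 for GMP (highest adjusted p 0.0971) and without mouse 1 or 4 for MEP (highest adjusted p 0.0816).

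Rrm2, the subunit of ribonucleotide reductase that sets the supply of deoxynucleotides in S phase, held 1892, 2156, 2203 and 2182 counts in control LSK and 2883, 3223, 2847 and 2934 in CMP. In GMP it held 3665, 2775, 2617 and 2868, and in MEP 2478, 2957, 2034 and 2404. LSK lay below CMP and GMP in all 4 control mice, by -0.50 ± 0.10 (limma adjusted p 0.00327) and -0.49 ± 0.10 (adjusted p 0.00151), and overlapped MEP, where the difference of -0.22 ± 0.10 did not pass (adjusted p 0.137). In Cxadr-ko mice the LSK counts of 2036, 2129, 2448 and 2154 lay below the MEP counts of 3516, 3313, 3493 and 3358, a difference of -0.64 ± 0.10 (adjusted p 0.00083).

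Pcna, the sliding clamp of DNA polymerases, was lower in LSK than in CMP and MEP, and lower in GMP than in CMP. Control counts were 3081, 3216, 3015 and 3118 (LSK), 3754, 4297, 3990.4 and 3912 (CMP), 3379, 3508, 3336 and 3373 (GMP) and 4031, 4513, 3641 and 3452 (MEP). LSK, GMP and CMP did not overlap and stood in that order. LSK was below CMP by -0.36 ± 0.06 (limma adjusted p 0.00054) and below MEP by -0.32 ± 0.06 (adjusted p 0.00092), while the difference of -0.13 ± 0.06 from GMP did not pass (adjusted p 0.0886). CMP exceeded GMP by 0.23 ± 0.06 (adjusted p 0.0163), a call lost without control mouse 2 or 3 (highest adjusted p 0.0953), and in Cxadr-ko mice the same difference was 0.22 ± 0.07 (adjusted p 0.0843).

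The other S-phase genes fell into those lower in LSK than in all 3 other populations and those that were not. Ccne1, encoding cyclin E1, averaged 200.2 ± 40.2 counts (SD, n = 4) in control LSK and 321 ± 82.1, 303 ± 59.6 and 308 ± 89.8 in CMP, GMP and MEP, and Cdc6 averaged 981 ± 78.03 against 1487 ± 113, 1337 ± 83.3 and 1390.4 ± 284. Both passed against each population in both genotypes, as did Tyms, the thymidylate synthase gene, with 2078 ± 106 in control LSK against 2765 ± 262, 2456 ± 173 and 2543 ± 162. In control mice the Ccne1 calls were lost without mouse 1 or mouse 2 against CMP and GMP and without mouse 2 against MEP (highest adjusted p 0.108). Calls against MEP were lost for Cdc6 without control mouse 1 or 2 (highest adjusted p 0.0728) or Cxadr-ko mouse 3 (adjusted p 0.0546), and for Tyms without control mouse 1 (adjusted p 0.0637). The control call of Tyms against GMP was lost without mouse 1 or 3 (highest adjusted p 0.108). The Mcm genes encode the ring of the helicase. Mcm3, Mcm4, Mcm5 and Mcm7 were lower in control LSK than in CMP (differences of -0.26 to -0.38), and the calls of Mcm3, Mcm4 and Mcm7 were lost without mouse 1 or 2, and that of Mcm7 also without mouse 4 (highest adjusted p 0.233). In control mice none of the 6 Mcm genes passed as lower in LSK than in GMP or MEP. Mcm6 was higher in LSK than in GMP, with 6451 ± 293 counts against 5425 ± 1131 in control mice (0.27 ± 0.08) and 6572 ± 119.8 against 5364 ± 794 in Cxadr-ko mice (0.30 ± 0.06). The control call was lost without mouse 2 or 3 (highest adjusted p 0.149).

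Mcm transcripts were higher in CMP than in GMP for some of the 6 genes in each genotype. All 6 Mcm differences between CMP and GMP lay above 0, between 0.20 and 0.36 in control mice and between 0.16 and 0.44 in Cxadr-ko mice. In control mice Mcm3, Mcm4 and Mcm7 passed the test, and in Cxadr-ko mice Mcm2, Mcm4 and Mcm6. Over all 45 genes 7 were higher in CMP than in GMP of control mice and none lower (background 14.2%, 7.81% higher and 6.38% lower), and 9 and none in Cxadr-ko mice (background 7.84%, 4.27% higher and 3.57% lower). Without control mouse 2 Mcm3, Mcm4 and Mcm7 no longer passed (adjusted p 0.0844, 0.0577 and 0.17) and the count over the 45 genes was 4, and Mcm7 did not pass without control mouse 4 either (adjusted p 0.122). The Cxadr-ko count was 4 without mouse 1 and 4 without mouse 3. There Mcm2 lost its call without any single mouse (highest adjusted p 0.201) and Mcm4 without mouse 1 or 3 (highest adjusted p 0.0761), while Mcm6 kept its call in each such fit. With all 8 mice in 1 fit 18 of the 45 genes passed, a count given without the share of all genes in that fit. Reads of Mcm7 and of the genes on its other strand, Cops6 (highest value 2968) and Ap4m1, cannot be told apart, since it is not stated whether counting used the strand.

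Mitotic genes were lower in LSK as well. In control mice 13 of the 17 passed as lower in LSK than in CMP, 12 than in GMP and 6 than in MEP. Of all genes tested 10.7%, 19.1% and 12.6% did. The median differences were -0.36, -0.41 and -0.15, against 0.02, 0.04 and 0.05 over all genes tested. With each control mouse left out in turn, the calls of Birc5, Ccnb1, Cdk1, Cenpe and Mki67 held against CMP, GMP and MEP. So did those of Aurkb against CMP and GMP, Ccnb2 and Top2a against CMP, and Tpx2 against MEP. The other calls did not hold in every such fit. Among the 17, Ccna2 alone, encoding cyclin A2, was higher in LSK than in MEP of control mice (0.34 ± 0.11, limma adjusted p 0.0319). That call was lost without control mouse 2, 3 or 4 (highest adjusted p 0.157). Ccna2 overlaps Exosc9 on the other strand, which reached 905, so the Ccna2 counts are uncertain. The mean log2 level of the 17 genes was lower in LSK than in each other population in all 8 mice, with median differences of -0.32, -0.32 and -0.21 from CMP, GMP and MEP. GMP exceeded MEP in all 8 mice, by 0.017 to 0.22. In Cxadr-ko mice 6 mitotic genes passed between LSK and CMP, 7 between LSK and GMP and 5 between LSK and MEP. Each was lower in LSK, as were 7.41%, 14.5% and 8.19% of all genes tested. With each Cxadr-ko mouse left out in turn, only Cdk1 of these genes kept its call against CMP. Birc5, Ccnb1, Cdk1 and Mki67 kept theirs against GMP, and Birc5, Cdk1 and Mki67 against MEP.

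Cdk1, the kinase that drives entry into mitosis, held 835, 748, 710.2 and 658 counts in control LSK. It held 1092, 1133, 1128 and 1113 for CMP, 1459, 1089, 1166 and 1187 for GMP and 1049, 973, 831 and 1081 for MEP. LSK lay below CMP and GMP without overlap and overlapped MEP only through the MEP library of mouse 3. The differences were -0.60 ± 0.09 (limma adjusted p 0.00028), -0.73 ± 0.09 (adjusted p 1.5e-05) and -0.41 ± 0.09 (adjusted p 0.00378). Cxadr-ko mice gave -0.58 ± 0.08, -0.76 ± 0.08 and -0.46 ± 0.08, from LSK counts of 909.9, 569.97, 732 and 537. GMP exceeded MEP by 0.31 ± 0.09 in control and 0.30 ± 0.08 in Cxadr-ko mice. These GMP to MEP calls were lost without control mouse 1, 2 or 3 and without any single Cxadr-ko mouse (highest adjusted p 0.156 and 0.159).

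Birc5, encoding survivin of the chromosomal passenger complex, held 1239, 1333, 1167 and 1185 counts in control LSK, 1749.8, 1744, 1699 and 1765 for CMP, 1998, 1860.1, 1827 and 1767 for GMP and 1804, 1748, 1667 and 1868 for MEP. The LSK libraries lay below all others and the other 3 populations lay close together. The LSK differences of -0.50 ± 0.06, -0.60 ± 0.06 and -0.53 ± 0.06 had limma adjusted p-values of 3.7e-05, 1.4e-06 and 1.8e-05. In Cxadr-ko mice they were -0.32 ± 0.09, -0.52 ± 0.09 and -0.42 ± 0.09, and the first was lost without mouse 1, 3 or 4 (highest adjusted p 0.175). Its promoter window held none of the 3 motifs.

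Aurkb, the kinase of the same complex, was lower in LSK and in MEP than in GMP of control mice. Control counts were 829, 982, 753 and 776 (LSK), 1166, 1154, 1103 and 1051 (CMP), 1316, 1159.9, 1226 and 1084 (GMP) and 1022, 949.6, 829 and 898 (MEP). MEP overlapped LSK and lay below all GMP libraries. LSK was below CMP by -0.43 ± 0.08 (limma adjusted p 0.00121) and below GMP by -0.52 ± 0.08 (adjusted p 8e-05), and GMP above MEP by 0.37 ± 0.08 (adjusted p 0.00471; 0.0535 without control mouse 3). In Cxadr-ko mice the GMP to MEP difference was -0.08 ± 0.13 (adjusted p 0.784).

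Cenpe, a kinetochore motor, held 1032, 961, 816 and 1068 counts in control LSK, 1351, 1323, 1284 and 1371 for CMP, 1344, 1408, 1579 and 1629.95 for GMP and 1284, 1399, 1351 and 1308 for MEP. LSK stood below every other control library, by -0.47 ± 0.08, -0.62 ± 0.08 and -0.47 ± 0.08 (limma adjusted p 0.00107, 2.8e-05 and 0.00079). In Cxadr-ko mice the LSK counts of 1059.5, 920.04, 1085 and 901 overlapped those of CMP (1245, 1440.3, 947 and 1120.5), and the difference of -0.25 ± 0.15 did not pass (adjusted p 0.313).

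Mki67, the Ki-67 gene used as a mark of cycling cells, held 2089, 1741, 1755 and 1974 counts in control LSK against 2669, 2594, 2258 and 2522 for CMP, 2616, 2614, 2502 and 2271 for GMP and 2412, 2411, 2280.5 and 2240.4 for MEP. In Cxadr-ko mice it held 1715, 1878, 1591 and 1446 (LSK), 2501, 2157, 1922 and 2079 (CMP), 2223, 2203, 2206 and 2494 (GMP) and 2268, 2286, 2005 and 2189.8 (MEP). LSK lay below all other populations without overlap in both genotypes. The control differences were -0.41 ± 0.06, -0.41 ± 0.06 and -0.31 ± 0.06 from CMP, GMP and MEP (limma adjusted p 0.00039, 0.00014 and 0.00264), and the Cxadr-ko differences were -0.38 ± 0.08, -0.47 ± 0.08 and -0.40 ± 0.08 (adjusted p 0.00621, 0.00067 and 0.00427). The first of the Cxadr-ko calls was lost without mouse 1 (adjusted p 0.057).

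Among the remaining mitotic genes Ccnb1, encoding cyclin B1, averaged 540.1 ± 100.3 in control LSK against 821 ± 127 in CMP and 843 ± 124 in GMP, and Plk1, a kinase of mitotic entry and exit, 339.8 ± 32.97 against 462 ± 70.2 and 461 ± 50.8. Both passed against CMP and GMP, but Plk1 not without control mouse 1 or 4 against CMP (highest adjusted p 0.146) or without mouse 1 against GMP (adjusted p 0.0862). Plk1 did not pass in Cxadr-ko mice, where it averaged 407 ± 39.2 in LSK and 422 ± 73.1 in CMP. Bub1b, Cenpf and Kif11 passed in no population comparison of either genotype, and 2 processed pseudogenes lie within Kif11 (highest values 216 and 240), so its counts are uncertain. No mitotic gene passed between CMP and MEP.

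**Figure D3:**
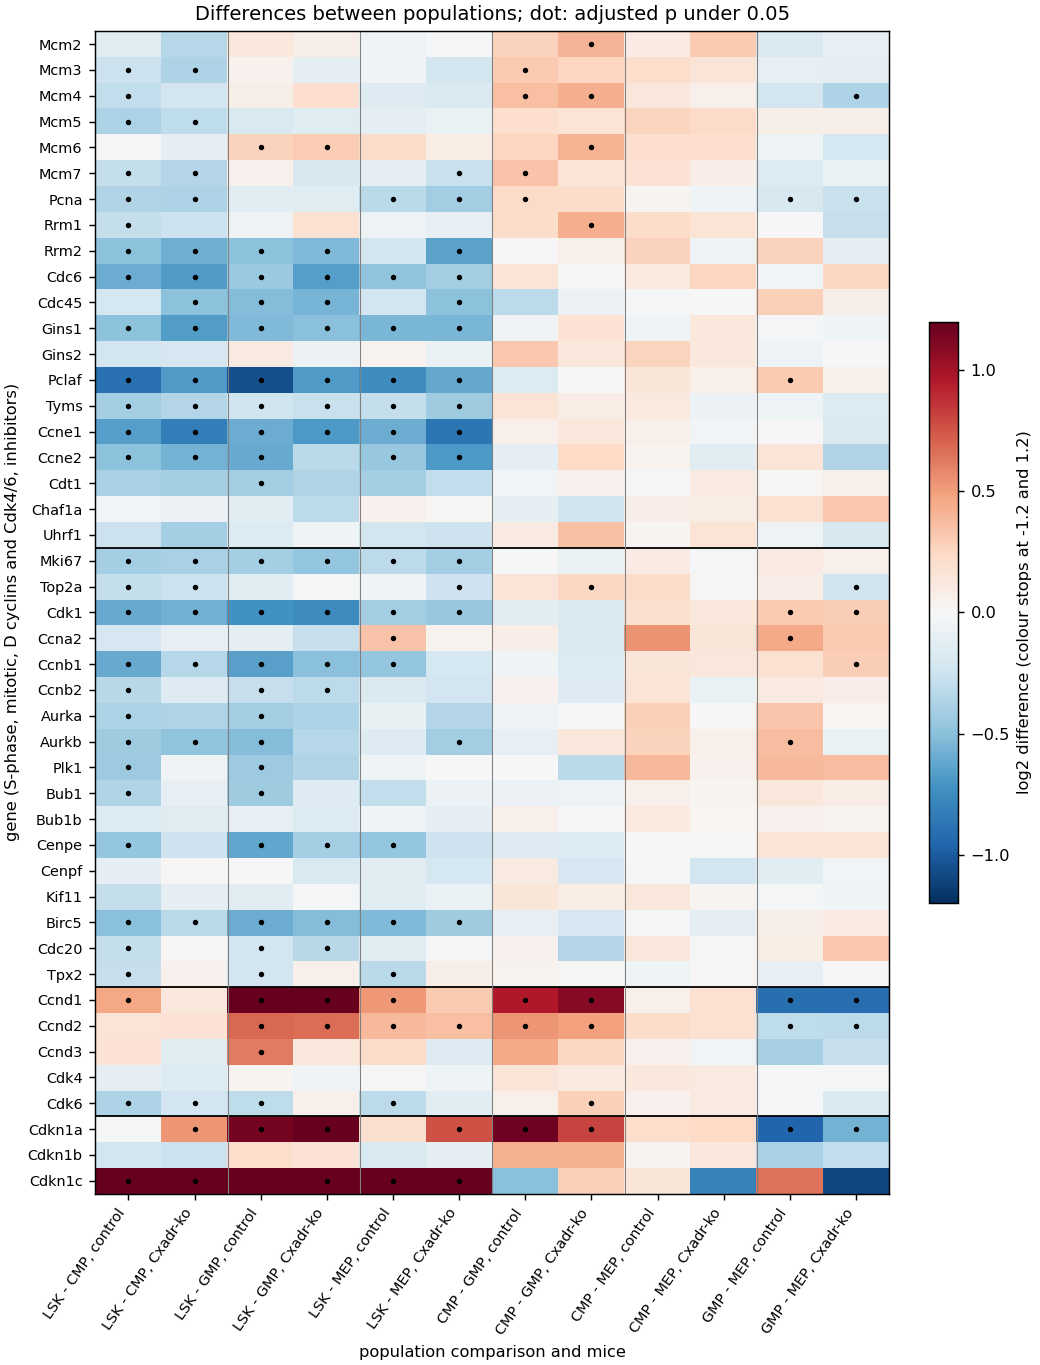
Log2 differences of the 45 genes (rows, by role) in the 6 population comparisons of control and Cxadr-ko mice (columns), with a dot where the adjusted p was under 0.05. The 6 columns with LSK are mostly blue (LSK lower) for the S-phase and mitotic rows, while Ccnd1, Ccnd2, Cdkn1a and Cdkn1c are red (LSK higher) against GMP.

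Ccnd1 and Ccnd2, encoding cyclins D1 and D2, were higher in LSK and in CMP than in GMP in both genotypes. Ccnd1 held 301, 312, 435 and 534 counts in control LSK, 279, 218, 279 and 357 for CMP, 152, 104, 184 and 142 for GMP and 276, 241, 311 and 247 for MEP. All GMP libraries lay below all others, and LSK overlapped CMP and MEP. LSK exceeded GMP by 1.43 ± 0.15 (limma adjusted p 4e-06) and CMP exceeded GMP by 0.96 ± 0.15 (adjusted p 0.00067). LSK also exceeded CMP by 0.46 ± 0.15, a call lost with any single mouse left out (difference 0.40 to 0.58, highest adjusted p 0.197). It exceeded MEP by 0.52 ± 0.15, a call lost without mouse 2, 3 or 4 (0.33 to 0.57, highest adjusted p 0.133) and kept without mouse 1. In Cxadr-ko mice Ccnd1 held 349, 331, 397 and 754 in LSK and 216, 84.6, 241 and 260.1 in GMP, a difference of 1.22 ± 0.22 (adjusted p 0.00082). CMP of those mice exceeded GMP by 1.10 ± 0.22 (adjusted p 0.0078), and by 1.13 without mouse 1, which did not pass (adjusted p 0.0511). Ccnd1 overlaps LTO1 on the other strand (highest value 468).

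Ccnd2 held 6043, 6501, 4940.3 and 5591 counts in control LSK, 6169, 4744, 4801 and 4849 for CMP, 3959, 3279.9, 3658 and 3341 for GMP and 4875, 4014, 4298 and 4384 for MEP. GMP lay below every other control library. LSK exceeded GMP by 0.69 ± 0.08 (limma adjusted p 4.6e-06) and MEP by 0.39 ± 0.08 (adjusted p 0.00177), and CMP exceeded GMP by 0.53 ± 0.08 (adjusted p 0.00031). The Cxadr-ko mice gave 0.67 ± 0.06, 0.36 ± 0.06 and 0.49 ± 0.06 for the same comparisons, with GMP counts of 3667, 2781, 3476 and 3745 against 6049.6, 4450.3, 6082 and 5199.6 in LSK.

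Ccnd3, encoding cyclin D3, held 645, 613, 796 and 753 counts in control LSK, 649, 636, 644 and 550.2 for CMP, 424, 514, 577 and 333 for GMP and 722, 410.5, 804 and 526 for MEP. LSK exceeded GMP without overlap, by 0.62 ± 0.16 (limma adjusted p 0.00622; 0.0664 without control mouse 4). In Cxadr-ko mice the LSK counts of 471, 789.9, 769 and 656 overlapped the GMP counts of 521, 674, 651 and 585, and the difference was 0.12 ± 0.14 (adjusted p 0.554). Reads of Bysl on its other strand (highest value 545) cannot be told apart from those of Ccnd3.

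Of their kinase partners, Cdk4 held 5392, 5144, 5143 and 5462 counts in control LSK, 6014, 5465, 5577 and 5899 for CMP, 5722, 4707, 5231 and 4986 for GMP and 5564, 5128, 4737 and 5578 for MEP. It passed in no comparison, and its gene overlaps Tspan31 (highest value 1611). Cdk6 held 16514, 14272, 15761 and 13471 in control LSK, 22459, 18240, 18879 and 17927 for CMP, 18326, 18784, 16808 and 19998 for GMP and 19749, 17299.8, 19147 and 18471 for MEP. LSK lay below all other control libraries, by -0.37 ± 0.07, -0.30 ± 0.07 and -0.32 ± 0.07 (limma adjusted p 0.00135, 0.00231 and 0.00313). In Cxadr-ko mice the differences were -0.23 ± 0.06 (adjusted p 0.0268), 0.06 ± 0.06 (adjusted p 0.54) and -0.12 ± 0.06 (adjusted p 0.211), and the first was lost without mouse 1, 2 or 3 (highest adjusted p 0.127). Antisense transcripts of Gm17590 within Cdk6 reached 433.

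Among the Cdk inhibitors, Cdkn1a, the p21 gene and a p53 target, was lower in GMP than in each other population. It held 3119, 3346, 2218 and 1907 counts in control LSK, 3043, 3346, 2213 and 2067 for CMP, 826, 1961, 1286 and 885 for GMP and 3108, 2319.5, 1873 and 1922 for MEP. GMP was the lowest population within each control mouse, though GMP of mouse 2 overlapped the LSK and MEP ranges of the other mice. LSK exceeded GMP by 1.14 ± 0.18 (limma adjusted p 0.00017) and CMP exceeded GMP by 1.16 ± 0.18 (adjusted p 0.00062), while LSK and CMP differed by -0.02 ± 0.18 (adjusted p 0.957). In Cxadr-ko mice Cdkn1a held 2966, 3507, 3928 and 3075 (LSK), 2194, 2555, 2076 and 2504 (CMP), 940.3, 1482, 1249 and 1775 (GMP) and 1923, 2309.8, 1712 and 1965 (MEP). There LSK lay above all other populations without overlap, exceeding CMP by 0.53 ± 0.13 (adjusted p 0.0176), GMP by 1.34 ± 0.13 (adjusted p 6.3e-06) and MEP by 0.77 ± 0.13 (adjusted p 0.00169). The LSK to CMP call was lost without mouse 2 or 3 (highest adjusted p 0.144) and without the libraries rich in transcripts of other cells (adjusted p 0.144).

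Cdkn1c, the p57 gene known for its expression in quiescent stem cells of marrow, was detected at low counts, most of them in LSK. It held 13.97, 29.6, 24.4 and 15.1 counts in control LSK, 0, 5.07, 6.87 and 0.931 for CMP, 0.927, 5.55, 1.098 and 13.1 for GMP and 6.67, 0, 7.09 and 0 for MEP. In Cxadr-ko mice it held 23.4, 19.7, 38.3 and 35.96 (LSK), 0.921, 0, 7.11 and 15.4 (CMP), 6.18, 0, 2.56 and 3.52 (GMP) and 3.11, 3.92, 10.4 and 9.35 (MEP). LSK lay above every library of the other populations in both genotypes. On the log2 scale of counts plus 1 the LSK to CMP difference was 2.75 ± 0.92 in control mice (limma adjusted p 0.0464) and 2.87 ± 0.66 in Cxadr-ko mice (adjusted p 0.0101), and neither passed without mouse 1, 2 or 3 (highest adjusted p 0.159 and 0.0716). Without mouse 4 the Cxadr-ko call was kept, and the control libraries did not pass the filter. Over the fits with a mouse left out the differences ran from 2.36 to 3.10 in control and from 2.37 to 3.44 in Cxadr-ko mice. The LSK to GMP difference was 2.24 ± 0.92 (adjusted p 0.0651) and 3.16 ± 0.66 (adjusted p 0.00239). With so few counts these sizes depend on the pseudocount. Cdkn1c passed the filter of at least 10 counts in at least 4 libraries only through its LSK libraries, where it is high. Its calls as higher in LSK, which also enter the totals over the 45 genes, thus give no separate support.

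Cdkn1b, the p27 gene, held 303, 398, 353 and 268 counts in control LSK, 381, 363, 441 and 341 for CMP, 190.1, 397, 357 and 235 for GMP and 312, 491, 396 and 309 for MEP. The populations overlapped, and it passed in no comparison of either genotype.

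**Figure D4:**
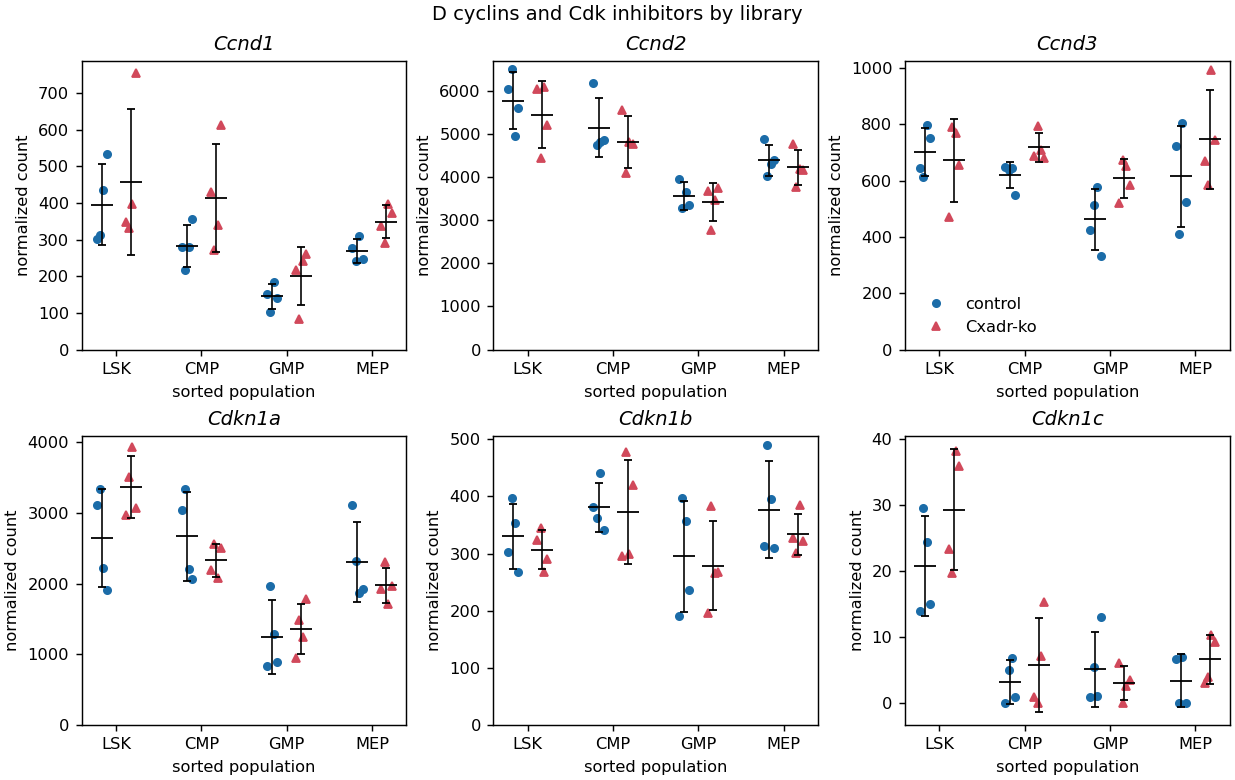
Normalized counts of the D cyclin and Cdk inhibitor genes by sorted population, 1 point per library, circles for control and triangles for Cxadr-ko mice. Ccnd1, Ccnd2 and Cdkn1a are lowest in GMP, and the Cdkn1c libraries above 15.4 are all from LSK.

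The Cxadr-ko mice gave the same population comparisons in other animals. Of 45 genes, 21 passed between LSK and CMP, 19 of them lower in LSK (background 14.3%, 7.41% lower and 6.9% higher). Between LSK and GMP 19 passed, 14 of them lower (background 31.7%, 14.5% lower and 17.2% higher). Between LSK and MEP 18 passed, 15 of them lower (background 16.9%, 8.19% lower and 8.7% higher). Those that also passed in control mice numbered 19, 18 and 12, each in the same direction. That is 65.5%, 66.7% and 66.7% of the control calls and 90.5%, 94.7% and 66.7% of the Cxadr-ko calls. The same overlap was not counted over all genes, so these shares are not shown to be particular to the 45. Pclaf, Gins1, Cdc6, Tyms, Ccne1, Cdk1, Mki67 and Birc5 passed in all 6 of these comparisons. How many of all genes did so was not counted. Among the genes just named, only Pclaf and Cdk1 kept all 6 calls with each mouse left out in turn. With each Cxadr-ko mouse left out in turn, 8 of the 21 LSK to CMP calls held. For GMP 15 of the 19 held, and for MEP 10 of the 18. The LSK to CMP count fell to 11 without Cxadr-ko mouse 1, to 13 without mouse 3, and to 12 without the libraries rich in transcripts of other cells.

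Between CMP and MEP none of the 45 passed with limma in control mice (background 0.00581%) or in Cxadr-ko mice (background 0%). With an unadjusted p under 0.05 there were 13 in control mice, against 11.9% of all genes tested. In Cxadr-ko mice there were 5, against 8.16%. DESeq2 called 2 in control and 0 in Cxadr-ko mice. The largest control difference was that of Ccna2, 558 ± 92.9 counts in CMP against 390.2 ± 114 in MEP, or 0.54 (adjusted p 0.117 with limma and 0.00354 with DESeq2). These counts are uncertain, since Exosc9 on the other strand of Ccna2 reached 905. Between GMP and MEP 8 of the 45 passed in each genotype, 4 higher and 4 lower in GMP of control mice (background 14.9%, 6.65% higher and 8.3% lower) and 2 higher and 6 lower in Cxadr-ko mice (background 9.01%, 4.11% higher and 4.9% lower). Pcna, Ccnd1, Ccnd2 and Cdkn1a were lower in GMP and Cdk1 higher in GMP in both. None of the 8 Cxadr-ko calls and 3 of the 8 control calls, those of Ccnd1, Cdkn1a and Pclaf, held with each mouse left out in turn.

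Other genes of the same pathways were counted from lists by function. Between LSK and CMP of control mice 11 of 20 further replication genes and 13 of 22 further mitotic genes were lower in LSK and none higher, against 10.7% lower and 11.2% higher over all genes tested. Gmnn, encoding the licensing inhibitor geminin, averaged 746 ± 46.2 counts in LSK against 1131 ± 27.01 in CMP and 1251 ± 26.7 in GMP (differences of -0.60 ± 0.07 and -0.75 ± 0.07). Cks1b and Cks2, small partners of Cdks, were lower in LSK than in GMP by -0.79 ± 0.05 and -1.11 ± 0.08, with Cks2 at 550.05 ± 55.3 counts in LSK and 1207 ± 242 in GMP. Of 20 genes of the RB, E2F and DREAM list 2 were higher and 2 lower in LSK than in CMP, shares near those of all genes. The higher ones were Rbl2, the p130 pocket protein gene of quiescent cells (556 ± 62.1 in LSK, 334 ± 19.9 in CMP and 279.7 ± 30.5 in GMP), and Tfdp2, a partner of E2F factors (643 ± 60.7, 452 ± 50.5 and 344 ± 39.2). The lower ones were Tfdp1 and E2f8, a repressor that is itself an E2F target (156 ± 13.3 in LSK and 306 ± 45.4 in CMP). The Rbl2 call against CMP was lost without control mouse 1 or 3 (highest adjusted p 0.1), and that against GMP held in each such fit.

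Of 16 tested genes of Cdk control 5 were lower and 1 higher in LSK than in CMP of control mice. Of all genes tested 10.7% were lower and 11.2% higher. The higher one was Mycn, a driver of growth, at 263 ± 45.1 in LSK, 80.96 ± 22.5 in CMP and 12.8 ± 8.74 in GMP. Cdkn2a and Cdkn2b did not pass the filter on low values. Cdk2, the partner of cyclin E, was higher in CMP than in GMP of control mice (2846 ± 264 and 2107 ± 231, a difference of 0.44 ± 0.07). Of 10 p53 targets 1 was higher and 1 lower in LSK than in CMP, shares near those of all genes, and 4 were higher and 1 lower in LSK than in GMP, where 22.8% and 19.1% of all genes were. Trp53inp1, a p53-induced stress gene, averaged 383 ± 188 in LSK and 60.2 ± 23.96 in GMP (2.61 ± 0.27), and Bax, the death effector gene, ran the other way, at 730.5 ± 30.7 and 1055 ± 78.6 (-0.53 ± 0.08).

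Between genotypes none of the 45 genes passed in any population. Limma called 0 of 45 in LSK (background 0.0433%, 0.0124% higher and 0.0309% lower in Cxadr-ko mice) and 0 of the 44 tested in CMP (0.0254%), GMP (0.0192%) and MEP (0.0253%), where Cdkn1c did not pass the filter. With an unadjusted p under 0.05 there were 6, 2, 4 and 4 members, against 8.58%, 7.27%, 5.66% and 5.93% of all genes tested, and DESeq2 called 1 in LSK, 1 in MEP and 0 in CMP and GMP. With each mouse entered once as the mean of its 4 libraries limma called 0 of 44 (background 0.0249%), and DESeq2 called 0. In that limma test 4 had an unadjusted p under 0.05, against 8.14% of all genes tested. No gene of the 45 was called for a genotype difference that varied between populations (0 called by limma, background 0%). An unadjusted p under 0.05 was found for 3, against 5.86% of all genes tested. The lowest p of that interaction test was that of Top2a, the topoisomerase gene (p 0.00447, adjusted p 0.742). Median genotype differences of the S-phase genes were 0.04, 0.11, 0.04 and 0.14 in LSK, CMP, GMP and MEP, and those of the mitotic genes 0.09, -0.10, 0.03 and 0.08.

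Pclaf in LSK was the member nearest to a genotype call. Its 4 Cxadr-ko libraries (2397, 2351, 2321 and 2290.04) all lay above its 4 control libraries (1673, 1901, 1853 and 1898). The difference was 0.36 ± 0.06 (95% interval 0.22 to 0.49; limma adjusted p 0.159, DESeq2 adjusted p 3.4e-05, range over all settings tried 3.4e-05 to 1). In CMP, GMP and MEP the Pclaf counts of the genotypes overlapped, and its differences were 0.15 ± 0.12, -0.02 ± 0.12 and 0.23 ± 0.14. Rrm2 in MEP was likewise higher in all 4 Cxadr-ko libraries than in all 4 control libraries, by 0.48 ± 0.10 (95% interval 0.25 to 0.72; limma adjusted p 0.791, DESeq2 adjusted p 0.0269). Pclaf and Rrm2 are named here for their low p. How many of all genes separate the genotypes in this way was not counted. Cdk6 in GMP held 15562, 14319.5, 13695 and 16965 in Cxadr-ko mice, of which only the last exceeded the lowest control library (16808), a difference of -0.29 ± 0.09 (95% interval -0.48 to -0.10; limma adjusted p 0.873). Mki67 in CMP differed by -0.22 ± 0.09 (95% interval -0.41 to -0.02; adjusted p 0.654). Cdkn1a in LSK differed by 0.38 ± 0.17 (95% interval 0.01 to 0.75; adjusted p 0.57), with the control libraries of mice 1 and 2 inside the Cxadr-ko range.

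**Figure D5:**
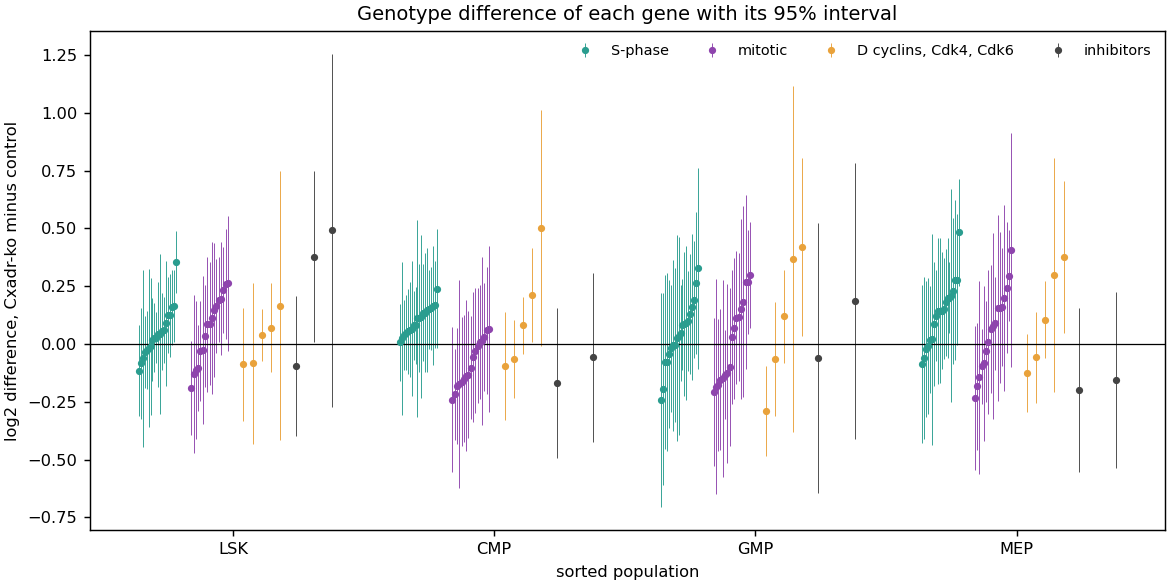
Log2 difference between Cxadr-ko and control mice for each gene in each sorted population, with its 95% interval from limma (n = 4 mice per genotype) and colours for the 4 roles. The points lie between -0.29 and 0.50 and most intervals include 0.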

How the data were processed

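RNA of 4 sorted populations from 4 control and 4 Cxadr-ko mice was sequenced after sorting into TRIzol and a low-input library kit, per the labels' protocols. The values are normalized counts per gene (signal) deposited by the authors, with STAR, DESeq2 and GRCm38/mm10 named in the submitters' processing notes. The sources used here do not give the read counter, its annotation or its use of strand. Dividing each library by its step of 0.814 to 1.28 normalized counts per read gave whole reads for 100% of 765992 values above 0, within 0.001 reads. The totals were 8313300 to 13641248 reads per library.

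The tests used log2(normalized count + 1) in limma 3.58.1 (R 4.3.3) on genes with at least 10 normalized counts in at least 4 of the libraries fitted. Tests were two-sided, with Benjamini-Hochberg adjustment over all genes tested and a threshold of 0.05. Population comparisons were made within a genotype with the mouse as a block, since the 4 populations came from the same mice. Genotypes were compared within a population over mice without a block, over the mean of the 4 libraries of a mouse, and by interaction. The replicates are separate mice. The tests were also run on simulated counts with known changes. Those counts held no differences between mice, so that run does not check the mouse block.

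The genes and lists were chosen with earlier results of these data known. Genes given library by library were the 4 S-phase and 4 mitotic genes of lowest p for any difference among control populations, the D cyclins with Cdk4 and Cdk6, the inhibitors, and the gene of lowest p in each genotype comparison. Up to 4 called genes of lowest p were named per pathway list and comparison, and others as group means. Alternatives were other pseudocounts, no filter, TMM and quantile scaling, edgeR 4.0.16 and DESeq2 1.42.0 on the recovered reads, other blocks and fits, and leaving out mice or libraries. Same-numbered mice of the 2 genotypes deviated together only for mouse 1 (correlations 0.139 to 0.512, others -0.079 to 0.097), so the numbers were not taken as pairs. The deviation shared by mouse 1 of both genotypes was thus left in the spread of the genotype tests within a population.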

Additional observations from a re-analysis of the deposited data

Results flagged for a closer look

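Among 152 groups of 4 libraries, 10 held a library whose gap to the nearest of the others exceeded Dixon's 95% critical share of the range, and chance alone gives about 5% of groups. Gins1 stood at 862 in GMP of control mouse 1 and at 659 in MEP of control mouse 3, the MEP library rich in neutrophil transcripts. Rrm2 was low in LSK of control mouse 1, at 1892, and Ccnd1 high in LSK of Cxadr-ko mouse 4, at 754. Ccnd2 was high in CMP of control mouse 1, at 6169, and Ccnd3 low in CMP of control mouse 4, at 550.2. Cdk4 was high in LSK of Cxadr-ko mouse 3, at 5704, and low in GMP of Cxadr-ko mouse 2, at 4947. Mki67 was high in GMP of Cxadr-ko mouse 4, at 2494. The mean log2 level of the 17 mitotic genes was low in GMP of Cxadr-ko mouse 2, at 9.92.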

How the results depend on the processing

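The counts of the 45 genes that passed between LSK and GMP and between LSK and MEP stayed within 1.5 times their values under the alternatives tried, in both genotypes. Counts from alternative fits, here and above, are of the 45 genes alone, without the share of all genes in each fit. Without the mouse as a replicate block the count in control mice was 20 for any difference among populations (34 with it), 18 for LSK and CMP, 3 for CMP and GMP and 4 for GMP and MEP, and in Cxadr-ko mice 3 for CMP and GMP and 1 for GMP and MEP. With one mouse left out, the control counts ran from 22 to 29 for any difference, 17 to 25 for LSK and CMP, 4 to 8 for CMP and GMP and 5 to 9 for GMP and MEP. The Cxadr-ko counts ran from 11 to 17, 4 to 8 and 2 to 4 for the last 3 comparisons. CMP and GMP gave 11 with quantile normalization and 13 with DESeq2 in control mice, and 18 with all 8 mice in one fit. CMP and MEP gave 2 with DESeq2 in control mice and 1 with all 8 mice. DESeq2 gave 1 between genotypes in LSK and 1 in MEP. GMP and MEP fitted alone gave 3 in control and 0 in Cxadr-ko mice, where no filter gave 5. Without libraries rich in transcripts of other cells the Cxadr-ko counts were 12 for LSK and CMP and 3 for GMP and MEP. Cdkn1a between LSK and CMP of control mice turned to 0.035 with quantile normalization and 0.25 with all 8 mice, and ran from -0.038 to 0.013 with one mouse left out. Cdk6 between LSK and GMP of Cxadr-ko mice turned to -0.12 with all 8 mice and -0.014 without those libraries. The cause was not tested. Fewer samples enter a fit with a mouse left out. Quantile normalization moved the median of all genes between LSK and GMP by -0.11 in control and -0.12 in Cxadr-ko mice. Counts of a few reads, as for Cdkn1c, limit the precision of its values.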
